A study of Mus musculus with 16 samples.

Results

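Cyclins, cyclin-dependent kinases (CDKs) and the proteins that license replication origins drive the cell through its division cycle, and their RNAs were followed here in Sox2 immunoprecipitates (IP) from male mouse embryonic stem cells (mESC). The genes were taken by symbol from the protein-coding genes of the count table, as those starting with Cdk, Cdc, Mcm or Orc and a digit, or with Ccn, one of the letters a to h, k, l or t and a digit, together with Ccnc, Ccnf, Ccnh and Ccnk. The rule found 96 of 53379 genes, of which 93 had enough counts to be tested. It also took 18 genes that share only the letters of the symbol, among them the Cdc42 family, Cdc73 and Mcm3ap, and these are described apart.

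RNA was sequenced from 4 groups of 4 libraries. Cells were crosslinked with formaldehyde, which joins proteins to RNA directly and through other proteins (fRIP), or with UV, which joins protein and RNA in direct contact (UV-RIP), and for each crosslinker an IP with an antibody to Sox2 was compared with the input RNA of the same lysates. All cells were of 1 genotype and grew with fetal bovine serum, LIF, the MEK inhibitor PD0325901 at 1 uM and the GSK3 inhibitor CHIR99021 at 3 uM. The authors used these inhibitors with LIF to maintain pluripotency. Replicates carry the numbers 3 to 6, each from its own culture plate, and no IP without the antibody to Sox2 was analysed here.

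CDKs are kinases that need an activating partner, for most of them a cyclin, and the cyclins of the cell cycle rise and fall as it proceeds. In G1, the origin recognition complex (Orc1 to Orc6) and Cdc6 load the ring-shaped MCM helicase (Mcm2 to Mcm7) onto DNA, and S phase kinases then fire the loaded origins once. mESC are known for a short G1 phase, though its length in this medium was not measured. Many of these genes are transcribed under E2F factors, which the Rb protein holds back until CDKs phosphorylate it. Other cyclins and CDKs act on RNA polymerase II rather than on the cycle.

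Libraries held between 12456298 and 21211537 unique molecular identifiers (UMIs) on genes, and the 96 genes took between 0.671% and 1.02% of them. Each UMI stands for 1 RNA fragment however often it was copied, and levels are given as CPM, the UMIs of a whole gene body, introns included, scaled to the total of the library. Gm26917 alone took 18.35% to 22.34% of the UMIs in the UV-RIP IP and 12.03% to 12.29% in its input, a share that CPM takes from the other genes. When libraries were scaled by the trimmed mean of M-values (TMM), the UV-RIP median over all genes went from -0.169 to 0.00521 on the log2 scale and that of the difference between the crosslinkers from 0.146 to 0.0298, so values are read against these medians. The fRIP IP of replicate 5 had the highest Gm26917 share of its group (12.43%), and the fRIP input of replicate 4 held 2.81% of UMIs on miscellaneous RNA genes. Of 8 mESC markers 7 were detected, and Sox2 itself was listed at 0 in all 16 libraries, although the authors detected its protein by western blot. The rule for reads shared by overlapping genes is not given, so a 0 is not read as absence.

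A gene was called enriched or depleted where IP and input differed by a fold above 1.5 with an adjusted p below 0.05 by edgeR's quasi-likelihood test. In fRIP, 5 of the 93 genes were enriched, or 5.38% against 8.80% of all 22936 genes tested, and 14 were depleted, or 15.1% against 10.7%. Their median log2 fold change was -0.28, against -0.03 for all genes. Without the binding proteins and the genes that match by symbol only, 68 tested genes were left, of which 1 was enriched (1.47%) and 11 were depleted (16.2%). Without replicate 4, 3 genes were called enriched (7.80% of all genes). With TMM scaling 5 were enriched and 11 depleted, against 9.94% and 9.37% of all genes. After a trend on gene length was removed 4 were enriched and 8 depleted, against 9.10% and 5.65% of all genes. The replicates are plates of 1 line and were a block in the test, so these p-values measure how the change from input to IP varied between plates. In UV-RIP, 1 gene was enriched (1.08% against 0.680% of all genes) and 7 were depleted (7.53% against 5.53%), with a median of -0.23 against -0.17 for all genes, and of the 68, 0 were enriched and 5 depleted (7.35%). TMM scaling left 1 enriched and 1 depleted in UV-RIP, against 2.20% and 1.85% of all genes. By adjusted p alone, without the fold threshold, 54 of the 93 were below input in fRIP and 14 above it (21.9% and 17.6% of all genes were), and 63 were below and 3 above in UV-RIP (29.0% and 6.60% of all genes).

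Levels before the IP differed between the crosslinkers as well. In the fRIP input, 25 of the 93 genes were higher than in the UV-RIP input by the same rule, or 26.9% against 10.6% of all genes, and 1 was lower (1.08% against 9.44%). Among protein-coding genes alone 12.3% were higher and 7.81% lower. TMM scaling gave 24 higher and 1 lower (9.98% and 9.99% of all genes), and library sizes that leave out Gm26917 and Gm42418 gave 18 and 4 (1835 and 2780 of all 22936 genes). Of the 7 mESC markers tested, Pou5f1, Nanog, Klf4, Tfcp2l1 and Dppa5a were also called higher in the fRIP input, by 0.97 to 1.26, and Esrrb (0.19) and Zfp42 (-0.03) were not called. The summed level of the mESC markers was 3446 to 4178 CPM there, 2060 to 2196 in the UV-RIP input, 3295 to 3562 in the fRIP IP and 1867 to 1976 in the UV-RIP IP. Of 12 markers of other cell types 10 were tested. Of these, 3 were called higher (Krt8, Col1a1 and Cdx2) and 1 lower (Pax6), against 10.6% and 9.44% of all genes. These calls lie near the floor, at a mean of 37.6, 14.7, 1.56 and 32.5 UMIs a library, and Cdx2 was at 0 in the UV-RIP libraries. The 12 markers had summed levels of 13.71 to 15.34 CPM in the fRIP input and 8.75 to 10.67 in the UV-RIP input. The sums were 11.85 to 14.85 in the fRIP IP and 9.63 to 11.87 in the UV-RIP IP, and Sox1 was at 0 in all libraries. The part of the mESC and other markers in the values of the cycle genes was not tested. In bulk RNA fewer cells of a type and less RNA per cell cannot be told apart, and neither can the crosslinker and its set of plates. 

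The difference in enrichment between the crosslinkers (fRIP minus UV-RIP, called at an adjusted p below 0.05 with no fold threshold) was positive for 20 genes, or 21.5% against 18.6% of all genes, and negative for 19, or 20.4% against 8.07%. Of the 68 genes, 10 were positive (14.7%) and 15 negative (22.1%). TMM scaling gave 18 positive and 28 negative calls (13.4% and 12.3% of all genes). Without the replicate block the negative calls numbered 10 (5.29% of all genes), and without replicate 3 they numbered 12 (5.73%). The input libraries enter the enrichment, the difference and the comparison of the inputs, so these values are not independent of each other.

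**Figure D1:**
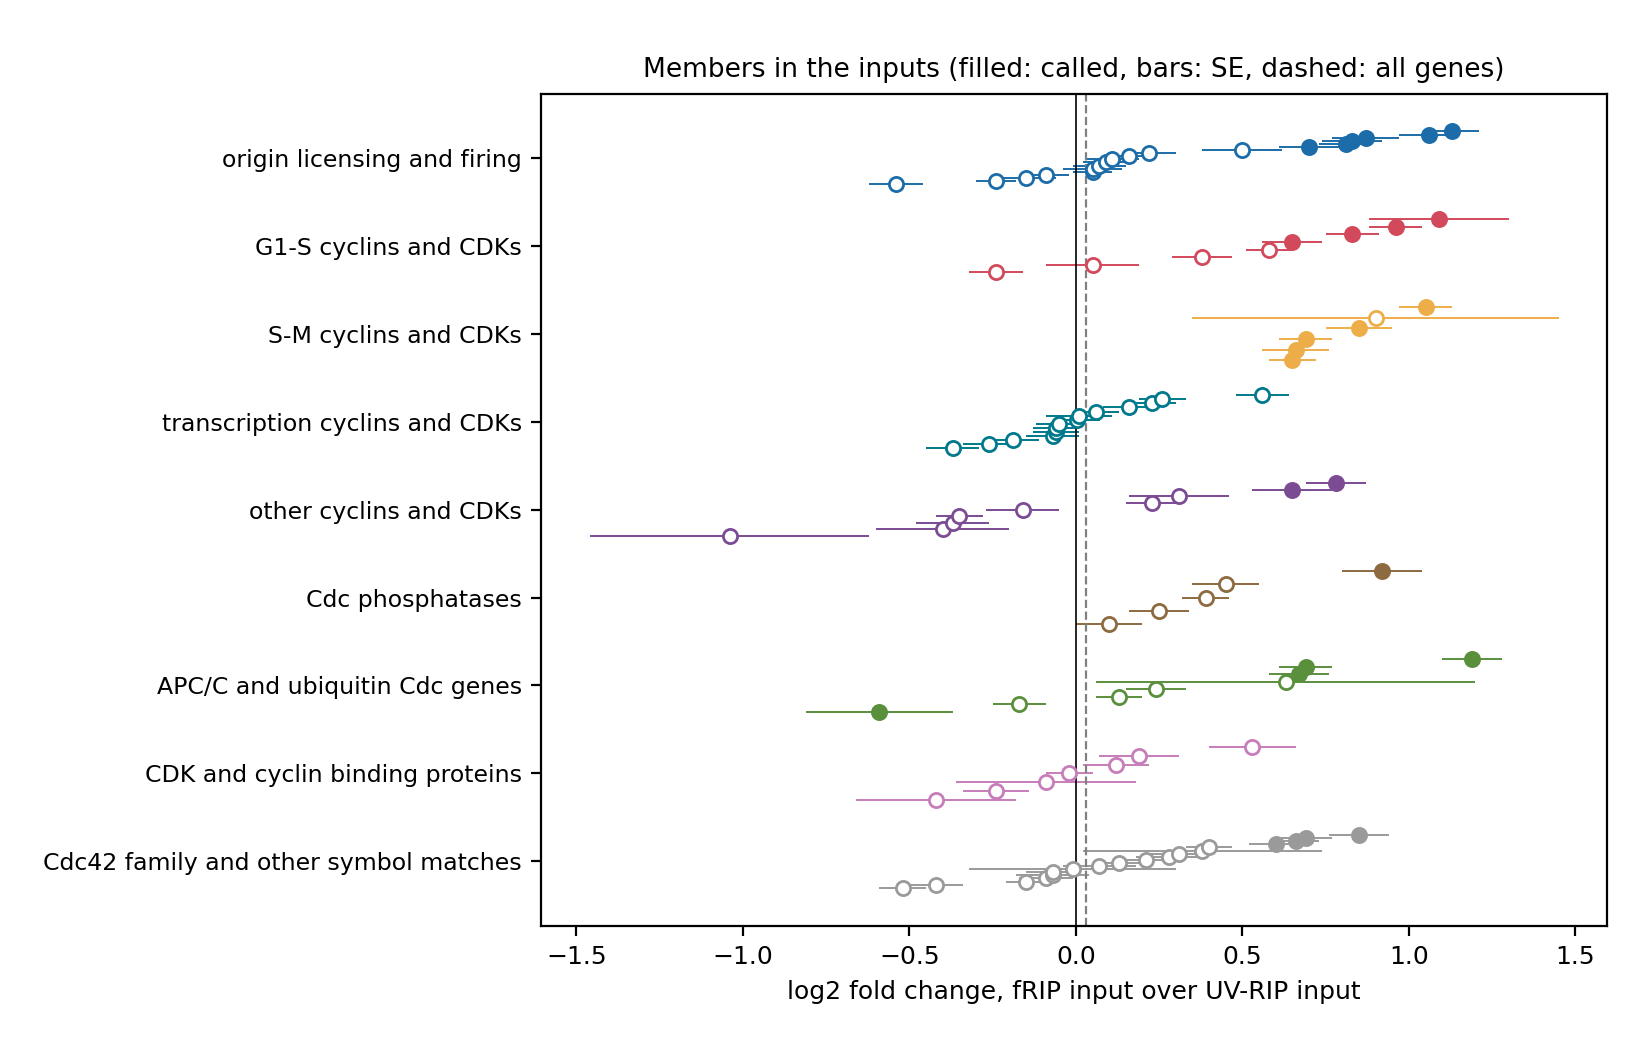
Log2 fold change of the fRIP input over the UV-RIP input for the 93 genes tested, in rows by role, with bars for the standard error, filled points for called genes and a dashed line at the median of all genes (0.03). All 5 called S-M cyclins and CDKs and all 6 called licensing genes lie to the right of 0, and none of the 14 transcription cyclins and CDKs is filled.

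Mcm2 to Mcm7, the 6 subunits of the MCM helicase, moved together. All 6 were higher in the fRIP input than in the UV-RIP input, with log2 fold changes of 0.70 to 1.13 and a median of 0.85 (10.6% of all genes were called higher there, and the median of all genes was 0.03). In the fRIP IP all 6 were below input at an adjusted p below 0.05, by -0.38 to -0.84 (21.9% of all genes were below input by that rule), and Mcm4 was also past the fold threshold. In UV-RIP the 6 lay between -0.11 and 0.07, and 4 were below input at an adjusted p below 0.05 (29.0% of all genes). With TMM scaling the UV-RIP values became 0.07 to 0.25, all above 0, while those of fRIP stayed at -0.34 to -0.80. The difference between the crosslinkers was called for all 6 (-0.29 to -0.74), where 8.07% of all genes had a negative call. This held with TMM scaling (12.3%) and after a trend on gene length was removed (8.58%), and without the replicate block 4 were called (5.29%).

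The sequences upstream of these 6 genes, which are classic E2F targets, are shown as a description. RefSeq promoters of GRCm38.p6 were at hand for 5 of the 6 (82 of the 96 genes), and each line gives the 250 bases upstream of the RefSeq start nearest to the 5′ end of the gene in the count table, 5′ to 3′ on the strand of the gene. For Mcm7, the nearer of 2 RefSeq starts lies 539 bases inside the gene body of the count table, so its whole window and the motif in it are within the annotated gene. Capitals mark the E2F motif, searched as TTTCCCGC or TTTGGCGC on both strands. The windows are chr6:88898781-88899030 (minus strand), chr1:20820313-20820562 (minus strand), chr8:75109259-75109508 (plus strand), chr1:128359706-128359955 (minus strand) and chr5:138171884-138172133 (minus strand).
Mcm2: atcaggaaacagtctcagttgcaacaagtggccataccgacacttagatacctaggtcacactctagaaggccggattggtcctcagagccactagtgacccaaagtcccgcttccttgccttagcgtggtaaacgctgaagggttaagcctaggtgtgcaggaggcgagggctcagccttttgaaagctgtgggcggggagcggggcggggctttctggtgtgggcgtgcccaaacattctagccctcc
Mcm3: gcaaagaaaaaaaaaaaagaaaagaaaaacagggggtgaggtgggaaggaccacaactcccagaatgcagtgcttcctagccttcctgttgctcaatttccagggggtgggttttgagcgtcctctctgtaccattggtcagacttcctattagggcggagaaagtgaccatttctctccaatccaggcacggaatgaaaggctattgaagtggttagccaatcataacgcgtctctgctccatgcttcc
Mcm5: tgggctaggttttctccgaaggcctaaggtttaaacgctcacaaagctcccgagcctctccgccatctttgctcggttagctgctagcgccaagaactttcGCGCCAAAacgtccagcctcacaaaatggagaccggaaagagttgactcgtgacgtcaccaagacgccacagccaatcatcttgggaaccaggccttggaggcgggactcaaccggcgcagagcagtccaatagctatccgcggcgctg
Mcm6: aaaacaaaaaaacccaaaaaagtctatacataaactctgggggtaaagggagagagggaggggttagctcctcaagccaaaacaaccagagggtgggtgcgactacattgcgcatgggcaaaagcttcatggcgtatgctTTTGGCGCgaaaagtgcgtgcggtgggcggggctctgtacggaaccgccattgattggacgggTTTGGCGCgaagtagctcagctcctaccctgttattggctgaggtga
Mcm7: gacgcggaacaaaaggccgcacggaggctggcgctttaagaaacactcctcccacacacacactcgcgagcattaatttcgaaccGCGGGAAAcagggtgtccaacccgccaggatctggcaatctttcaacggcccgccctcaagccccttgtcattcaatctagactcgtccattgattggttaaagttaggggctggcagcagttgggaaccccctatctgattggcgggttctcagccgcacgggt

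Mcm6 held the motif at 2 places, with first bases 110 and 47 bases upstream of the start, Mcm5 at 149 and Mcm7 at 165 bases upstream, and Mcm2 and Mcm3 held none of these letters in this window. Among the 82 genes with a promoter the motif was found for 7 (8.54%), which are Cdc25a, Cdc6, Cdk2, Mcm5, Mcm6, Mcm7 and Orc3, against 407 of all 27025 genes (1.51%). The CCAAT box, read on both strands as CCAAT, was found upstream of all 5 MCM genes shown, and of 53.7% of the 82 genes against 37.5% of all genes. Of the 7 genes with the E2F motif, Mcm5, Mcm6 and Mcm7 were called higher in the fRIP input, and Cdc25a, Cdc6, Cdk2 and Orc3 were not called between the inputs. Mcm2 and Mcm3, without the motif, were called higher too. A match describes the letters of the window and is no measure of binding, and a link between the motif and the levels was not tested.

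Mcm2 (ENSMUSG00000002870.8, chr6:88883474-88898780, minus strand) had 245, 344, 296 and 268 CPM in the fRIP input of replicates 3 to 6 and 194, 227, 244 and 215 in the IP. In UV-RIP its input held 145, 132, 137 and 139 CPM and its IP 156, 144, 136 and 146. The groups were fully apart in fRIP and overlapped in UV-RIP, and every fRIP input library lay above every UV-RIP input library. On the log2 scale the change from input to IP was -0.38 (standard error 0.08, adjusted p = 0.000219) in fRIP and 0.07 (standard error 0.04, adjusted p = 0.229) in UV-RIP, a difference of -0.45 (adjusted p = 0.000176), and the inputs differed by 1.06 (adjusted p = 2.79e-07).

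Mcm3 (ENSMUSG00000041859.10, chr1:20802968-20820312, minus strand) had 210.00, 283, 260.4 and 232 CPM in the fRIP input and 163, 186, 205 and 187 in the IP. In UV-RIP, Mcm3 had 148, 133, 135 and 139 CPM in the input and 136, 124, 124 and 131 in the IP. IP and input were apart in fRIP and overlapped in UV-RIP, where all 4 pairs were lower in the IP. The inputs differed by 0.83 (adjusted p = 1.91e-06), and the difference in enrichment of -0.30 (adjusted p = 0.0072) had an adjusted p of 0.0753 without the replicate block. Mcm5 (ENSMUSG00000005410.6, chr8:75109569-75128439, plus strand) held the highest level of the 6, with 293, 396, 325 and 305 CPM in the fRIP input and 228, 258, 261 and 248 in the IP. In UV-RIP, Mcm5 had 207, 192, 206 and 207 CPM in the input and 193, 186, 182 and 193 in the IP. Its inputs differed by 0.70 (adjusted p = 8.39e-06), which was 0.58 and under the fold threshold without replicate 4, and its enrichment differed by -0.29 (adjusted p = 0.0085), with an adjusted p of 0.0572 without the block and 0.0547 without replicate 3.

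Mcm4 (ENSMUSG00000022673.4) gave the largest fall of the 6. The fRIP input held 204, 274, 230.3 and 229 CPM and the IP 119, 138, 129 and 134, so that the highest IP library stayed below the lowest input library. The UV-RIP input held 113, 105, 106 and 106 CPM and the IP 107, 101, 89.7 and 103, with overlapping groups. Mcm4 was depleted at -0.84 (standard error 0.08, adjusted p = 4.54e-09) in fRIP and lay at -0.10 (standard error 0.04, adjusted p = 0.0474) in UV-RIP, and its difference of -0.74 (adjusted p = 3.18e-07) was the lowest among the genes that averaged 10 UMIs or more a library.

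Mcm6 (ENSMUSG00000026355.11, chr1:128331590-128359664, minus strand) had 261, 348, 288 and 274 CPM in the fRIP input and 184, 217, 194 and 205 in the IP. In UV-RIP, Mcm6 had 170.3, 156, 172 and 169 CPM in the input and 166, 148, 145 and 158 in the IP. Mcm7 (ENSMUSG00000029730.16, chr5:138164583-138172422, minus strand), whose body also holds Mir25, Mir93 and Mir106b and overlaps Ap4m1 and Cops6, had 195, 282, 219 and 194 CPM in the fRIP input and 136, 150.1, 169.9 and 143 in the IP. In UV-RIP, Mcm7 had 130.2, 117, 121 and 119 CPM in the input and 132, 113, 114 and 119 in the IP. Both were below the fold threshold in fRIP, at -0.55 (adjusted p = 1.90e-06) and -0.56 (adjusted p = 8.25e-06), and passed it without replicate 6 (-0.59 and -0.60), as did Mcm7 without replicate 5 (-0.62). The fRIP input of replicate 4 was the highest library for each of the 6 MCM genes, and the plot of the MCM libraries shows it above the other 3.

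**Figure D2:**
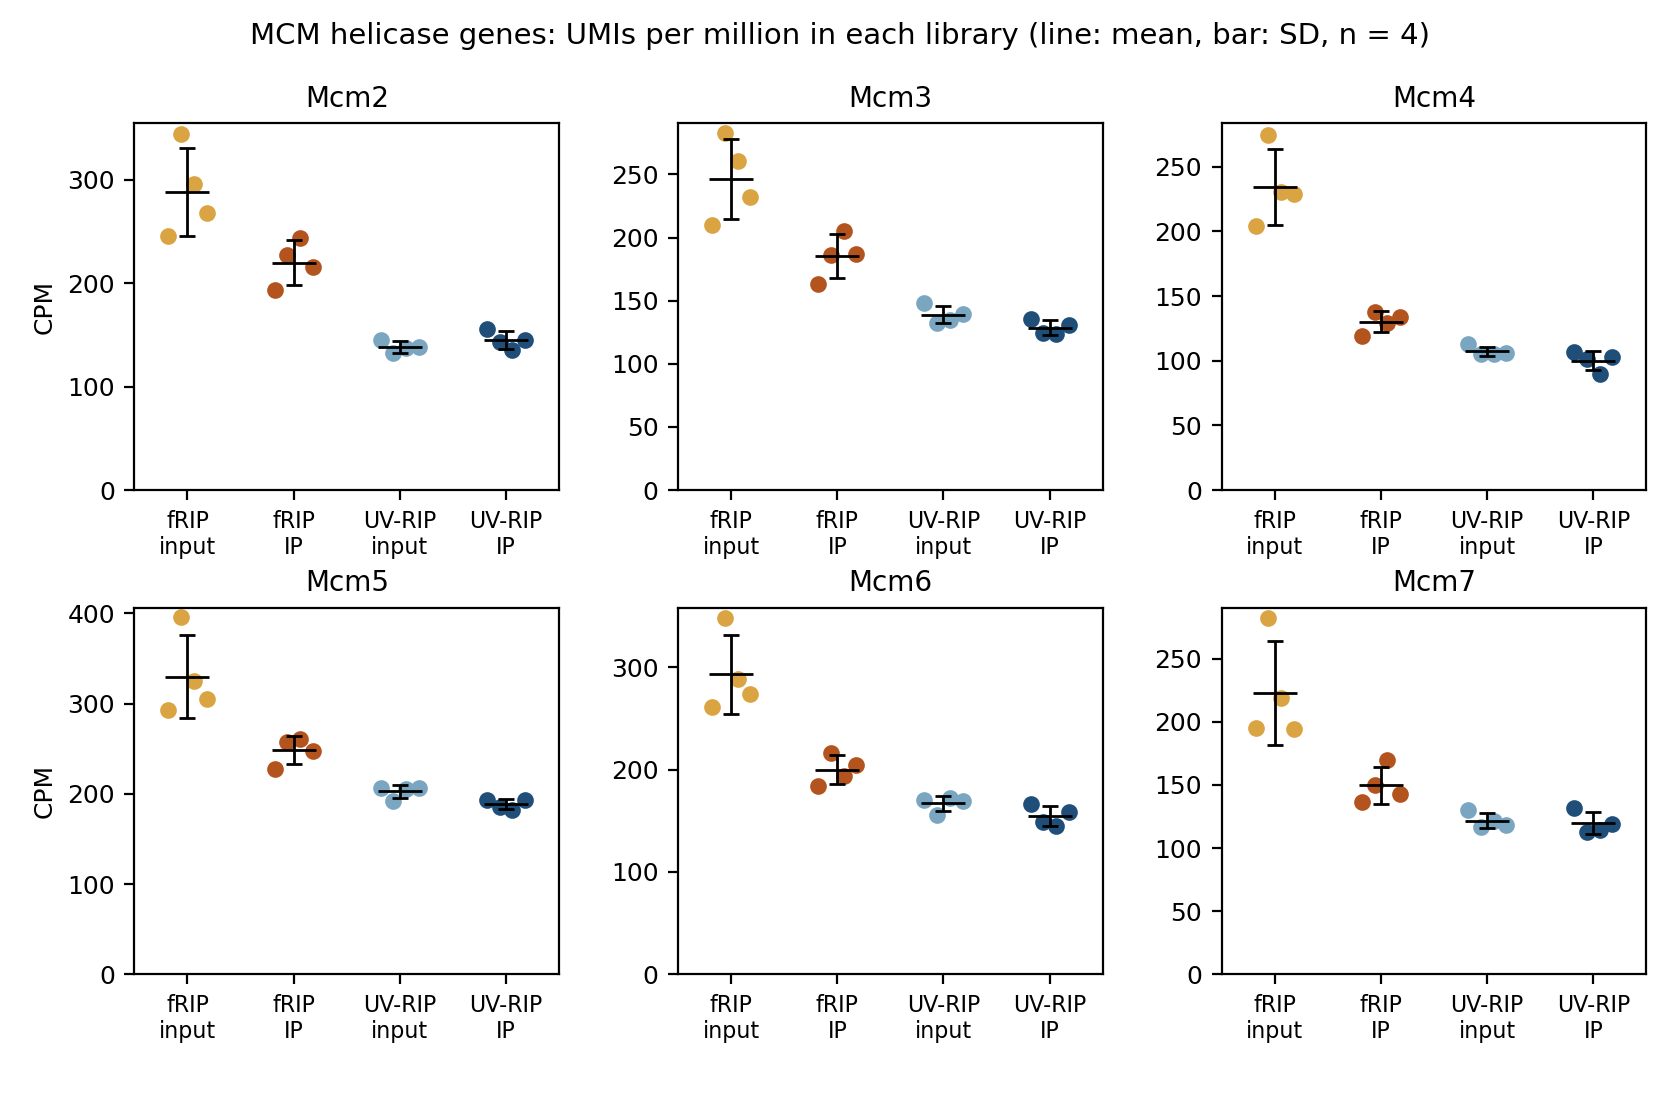
Level in CPM (y axis) of Mcm2 to Mcm7 in each of the 16 libraries, with the mean as a line and the SD as a bar (n = 4 a group). For each of the 6 genes the lowest fRIP input library lies above the highest fRIP IP library and the highest UV-RIP input library, while the UV-RIP IP and input overlap. How many of all genes have groups apart in this way was not computed, so nothing is read from the 6.

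Orc1 to Orc6 mark the origins. None of the 6 was called between the inputs (10.6% of all genes were higher and 9.44% lower in fRIP), where they ran from -0.24 to 0.50 with a median of -0.02. All 6 were below input at an adjusted p below 0.05 with both crosslinkers (-0.24 to -0.84 in fRIP and -0.16 to -0.87 in UV-RIP), as were 21.9% and 29.0% of all genes. In UV-RIP, where the median of all genes was -0.17, Orc5 (-0.16) and Orc1 (-0.20) lay near that median, and with TMM scaling the range of the 6 became -0.69 to 0.02. Only Orc6 was called for the difference (negative, as for 8.07% of all genes), and it lost that call without the replicate block.

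Orc4 (ENSMUSG00000026761.12, chr2:48902824-48950277, minus strand) was depleted with both crosslinkers. Its fRIP input held 85.7, 81.1, 67.7 and 92.4 CPM and its IP 51.4, 49.5, 31.6 and 52.2. In UV-RIP, Orc4 had 87.1, 89.8, 93.2 and 93.3 CPM in the input and 45.3, 51.2, 52.9 and 49.3 in the IP. IP and input did not overlap in either, and the fRIP IP of replicate 5 was the lowest library. The log2 fold changes of -0.84 (standard error 0.08, adjusted p = 2.24e-08) and -0.87 (standard error 0.05, adjusted p = 9.86e-74) differed by 0.03 (adjusted p = 0.861), and Orc4 had the lowest UV-RIP value among the genes called there. Its transcript GC content of 36.8% was among the lowest of the 96 genes, and after a trend on transcript GC was removed its values were -0.49 and -0.37, under the fold threshold in both.

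Orc6 (ENSMUSG00000031697.12, chr8:85299632-85308278, plus strand), which overlaps Vps35, had 47.1, 74.8, 52.5 and 48.5 CPM in the fRIP input and 29.5, 33.5, 28.9 and 30.9 in the IP. In UV-RIP, Orc6 had 44.1, 37.5, 37.6 and 38.9 CPM in the input and 29.7, 25.2, 26.9 and 26.6 in the IP. IP and input were apart with both crosslinkers, and the fRIP input of replicate 4 was far above the other 3. Orc6 was depleted in fRIP at -0.84 (standard error 0.09, adjusted p = 7.57e-08) and lay at -0.54 (standard error 0.06, adjusted p = 5.91e-20) in UV-RIP. The difference of -0.30 (adjusted p = 0.0417) had an adjusted p of 0.169 without the block, 0.0612 without replicate 3, 0.118 without replicate 4 and 0.157 without replicate 5. The inputs differed by 0.50 (adjusted p = 0.00474), and by 0.63 without replicate 3, which was past the fold threshold.

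Orc1 (ENSMUSG00000028587.18, chr4:108579423-108614833, plus strand) had 135, 171, 132 and 137 CPM in the fRIP input and 118, 126, 111 and 127 in the IP. In UV-RIP, Orc1 had 118, 124, 122 and 129.7 CPM in the input and 109, 102, 108 and 111 in the IP. Orc2 (ENSMUSG00000026037.14, chr1:58462771-58505109, minus strand) had 147, 149.9, 137 and 139 CPM in the fRIP input and 124, 120.00, 94.95 and 123 in the IP. In UV-RIP, Orc2 had 142, 141, 134 and 135 CPM in the input and 113, 111, 123 and 121 in the IP. IP and input of both genes were apart with either crosslinker, by -0.25 and -0.32 in fRIP and -0.20 and -0.24 in UV-RIP. Orc3 (ENSMUSG00000040044.11, chr4:34570796-34614944, minus strand) had 93.9, 94.3, 83.3 and 86.2 CPM in the fRIP input and 71.7, 71.5, 55.9 and 69.7 in the IP. In UV-RIP, Orc3 had 93.8, 96.00, 94.8 and 97.1 CPM in the input and 69.5, 69.2, 71.8 and 73.4 in the IP, and was below input without overlap in both, at -0.42 (standard error 0.08, adjusted p = 0.000124) and -0.43 (standard error 0.05, adjusted p = 6.15e-20), a difference of 0.01 (adjusted p = 0.961). Orc5 (ENSMUSG00000029012.11, chr5:22486485-22550429, minus strand) had 136, 132, 124 and 129 CPM in the fRIP input and 124, 118, 87.6 and 114 in the IP. In UV-RIP, Orc5 had 152, 149, 156 and 158 CPM in the input and 129, 129, 154 and 138 in the IP. The groups of Orc5 overlapped with both crosslinkers, at -0.24 (adjusted p = 0.0184) and -0.16 (adjusted p = 0.000345). The fRIP IP of replicate 5 was the lowest of its group for all 6 ORC genes, as the plot of the ORC libraries shows.

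**Figure D3:**
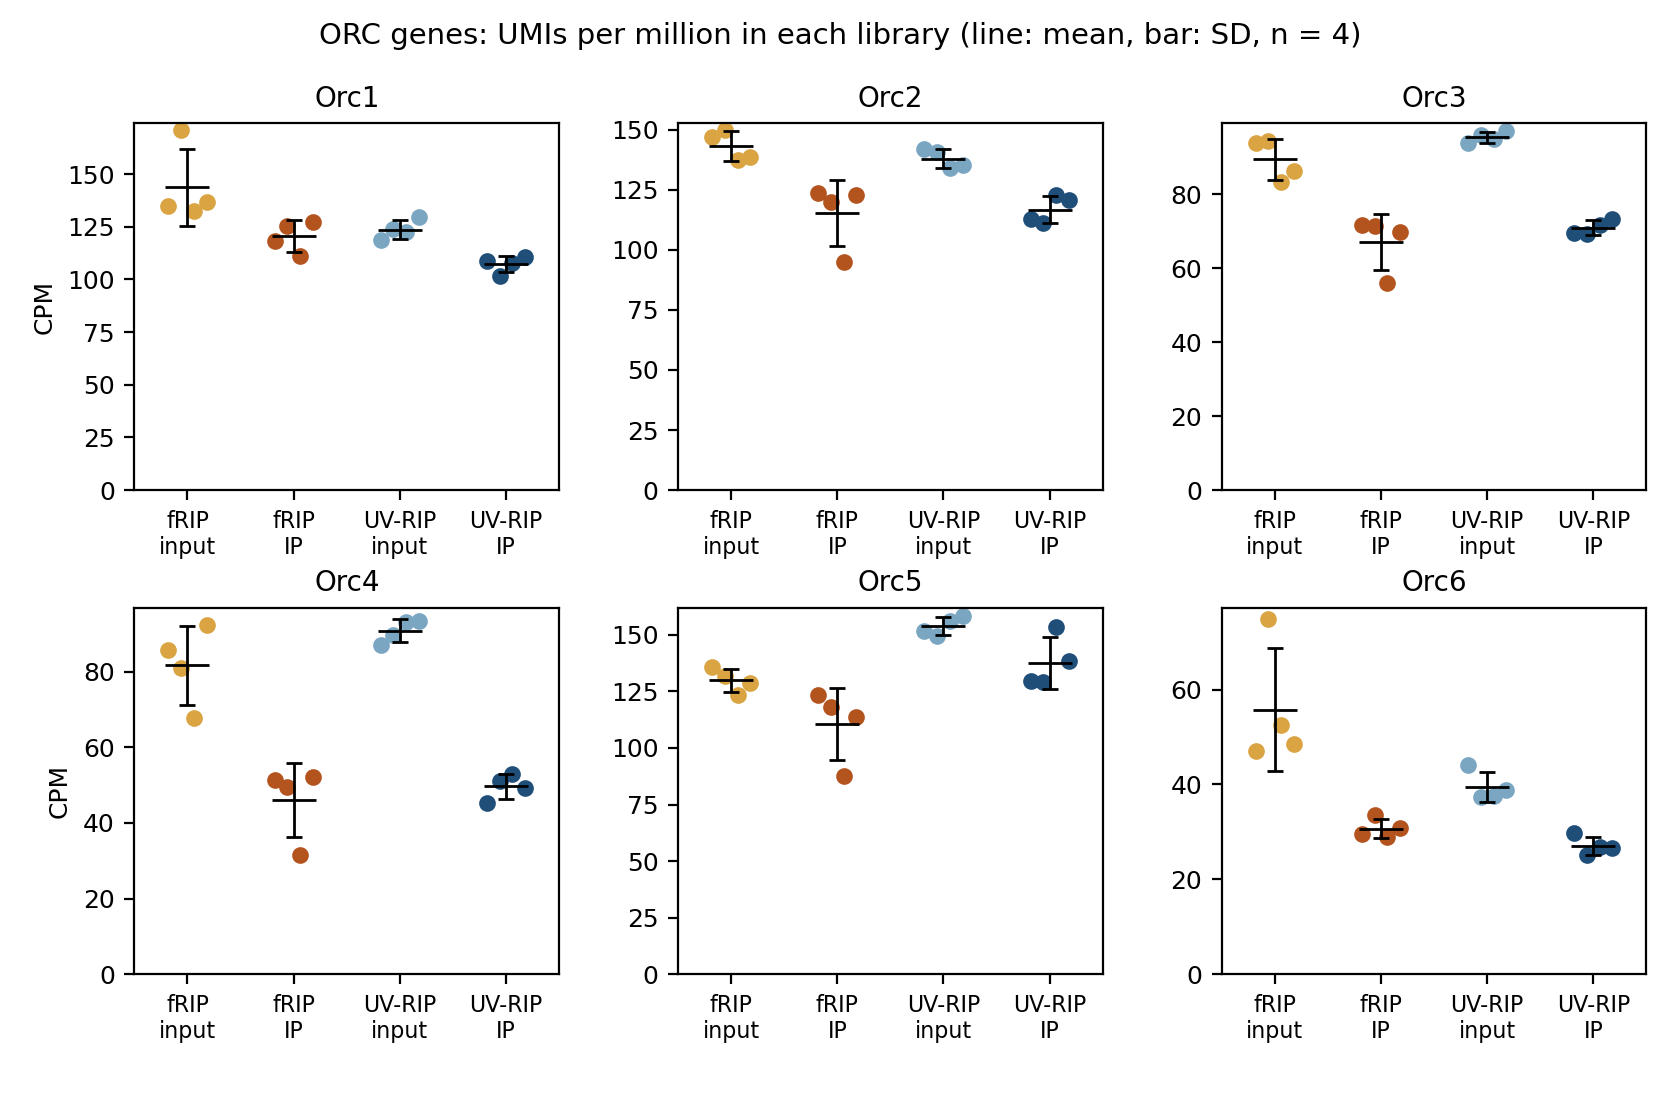
Level in CPM (y axis) of Orc1 to Orc6 in each of the 16 libraries, with the mean as a line and the SD as a bar (n = 4 a group). Orc4 falls from input to IP with both crosslinkers, and the inputs of Orc2, Orc3 and Orc4 overlap between the crosslinkers.

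Cdc6 (ENSMUSG00000017499.15, chr11:98907801-98923940, plus strand), which brings the helicase to ORC, had 71.4, 83.2, 74.9 and 70.4 CPM in the fRIP input and 59.7, 61.7, 66.4 and 58.8 in the IP. In UV-RIP, Cdc6 had 70.7, 74.8, 65.03 and 66.9 CPM in the input and 64.00, 67.1, 57.5 and 63.3 in the IP. The groups were apart in fRIP and overlapped in UV-RIP, and no call was made at -0.28 (adjusted p = 0.00591) and -0.14 (adjusted p = 0.0111). Cdc45, a partner of the active helicase, and Cdc7, the kinase that fires origins, had -0.25 and -0.47 in fRIP, -0.29 and -0.41 in UV-RIP, and 0.09 and 0.05 between the inputs. Mcm8, Mcm9 and Mcm10, which are no part of the ring of 6, were not called between the inputs (0.07, -0.54 and 0.16). Mcm9, in a gene body of 94.1 kb, was the 1 licensing gene with a positive call for the difference, 0.46 (adjusted p = 0.000392). Over all 18 licensing and firing genes, 6 were higher in the fRIP input and none lower (10.6% and 9.44% of all genes). The 6 are Mcm2 to Mcm7, and none of the other 12 was called there.

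The G1-S group holds the D and E cyclins with their kinases Cdk4, Cdk6 and Cdk2, which phosphorylate Rb. Of its 8 genes, 4 were higher in the fRIP input (Ccnd1, Ccnd2, Ccne1 and Cdk4), 2 were depleted in the fRIP IP (Cdk4 and Ccne2) and 1 was enriched there (Cdk6). Of all genes 10.6%, 10.7% and 8.80% were called so, and 1 gene of 8 is already 12.5%. None was called in UV-RIP (0.680% of all genes were enriched and 5.53% depleted), where 4 were below input without the fold threshold and the median was -0.09, or 0.09 with TMM scaling.

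Cdk4 (ENSMUSG00000006728.12, chr10:127063534-127067920, plus strand), which overlaps Tspan31, had 184, 228, 226 and 192 CPM in the fRIP input and 114, 134, 141 and 133 in the IP, with no overlap. In UV-RIP the input held 117, 118, 113 and 118 CPM and the IP 112, 105, 92.9 and 97.2, also apart but by less. The log2 fold changes of -0.67 (standard error 0.08, adjusted p = 1.26e-07) and -0.20 (standard error 0.04, adjusted p = 2.54e-05) differed by -0.47 (adjusted p = 0.000105), and the inputs by 0.83 (adjusted p = 7.37e-07). After a trend on gene length was removed the fRIP value was -0.26 and that between the inputs 0.47, both under the fold threshold. Per kilobase of gene body, Cdk4 had 47.3 CPM in the fRIP input and Cdk6 had 1.06.

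Cdk6 (ENSMUSG00000040274.11, chr5:3341485-3531008, plus strand), the paralog of Cdk4, went the other way. Its body of 189.5 kb held 238, 177, 199 and 191 CPM in the fRIP input and 334, 332, 280.2 and 265 in the IP, where every IP library was above every input library. The UV-RIP input held 246, 252, 226 and 226 CPM and the IP 238, 246, 237 and 235, which overlapped. Cdk6 was enriched in fRIP at 0.59 (standard error 0.08, adjusted p = 2.11e-06) and lay at 0.01 (standard error 0.04, adjusted p = 0.88) in UV-RIP, a difference of 0.58 (adjusted p = 2.23e-05). Without replicate 4 the fRIP value was 0.49, under the fold threshold, and after removal of a length trend it was 0.20 and the difference 0.11 (adjusted p = 0.523).

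Cdk2 (ENSMUSG00000025358.16, chr10:128697939-128705031, minus strand), which overlaps Pmel, had 78.8, 85.7, 85.8 and 80.7 CPM in the fRIP input and 54.8, 60.3, 61.7 and 56.3 in the IP. In UV-RIP, Cdk2 had 57.1, 56.7, 53.1 and 54.02 CPM in the input and 44.4, 44.6, 39.5 and 45.2 in the IP. IP and input were apart with both crosslinkers, yet the values of -0.51 (adjusted p = 8.06e-06) and -0.35 (adjusted p = 8.18e-11) stayed under the fold threshold. The inputs differed by 0.58 (adjusted p = 8.07e-06), just under that threshold, and by 0.62 without replicate 3.

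Ccnd1 (ENSMUSG00000070348.5, chr7:144929931-144939925, minus strand), the cyclin D of most dividing cells, had 59.5, 66.4, 68.6 and 57.4 CPM in the fRIP input and 45.2, 49.3, 58.7 and 44.2 in the IP. In UV-RIP, Ccnd1 had 32.9, 33.1, 30.8 and 32.7 CPM in the input and 34.2, 30.2, 30.00 and 31.6 in the IP. The IP of replicate 5 reached into the fRIP input range, and the UV-RIP groups overlapped. The inputs differed by 0.96 (adjusted p = 2.82e-07). The difference in enrichment of -0.32 (adjusted p = 0.0118) had an adjusted p of 0.0829 without the replicate block, 0.127 without replicate 3 and 0.0737 without replicate 6.

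Ccnd2 (ENSMUSG00000000184.12, chr6:127125162-127152193, minus strand) was low, with 4.75, 5.34, 3.33 and 3.45 CPM in the fRIP input and 3.10, 3.16, 3.39 and 1.83 in the IP. In UV-RIP, Ccnd2 had 2.57, 1.76, 2.04 and 1.59 CPM in the input and 2.04, 1.42, 2.13 and 2.26 in the IP. It was higher in the fRIP input by 1.09 (adjusted p = 0.000554), with no overlap of the inputs, and its fRIP value of -0.55 (adjusted p = 0.00989) was -0.75 and past the fold threshold without replicate 5. Ccnd3 (ENSMUSG00000034165.16, chr17:47505051-47599691, plus strand) had 113, 109.5, 144 and 131 CPM in the fRIP input and 123, 125, 133 and 140.4 in the IP. In UV-RIP, Ccnd3 had 99.3, 94.96, 92.96 and 94.8 CPM in the input and 95.2, 97.5, 100.2 and 97.7 in the IP. IP and input of Ccnd3 overlapped with both crosslinkers, at 0.08 (adjusted p = 0.503) and 0.03 (adjusted p = 0.653), while its fRIP input libraries were all above its UV-RIP input libraries, at 0.38 (adjusted p = 0.00202) and under the fold threshold.

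Ccne1 (ENSMUSG00000002068.16, chr7:38097984-38107534, minus strand), which pairs with Cdk2, had 64.6, 84.99, 77.6 and 68.2 CPM in the fRIP input and 50.8, 57.3, 58.03 and 52.9 in the IP. In UV-RIP, Ccne1 had 47.8, 45.4, 45.3 and 50.1 CPM in the input and 42.8, 42.1, 43.1 and 43.5 in the IP. All 4 pairs were lower in the IP with each crosslinker, at -0.43 (adjusted p = 0.000105) and -0.14 (adjusted p = 0.0258). Its difference of -0.29 (adjusted p = 0.0156) had an adjusted p of 0.0739 without the block, 0.0531 without replicate 3 and 0.0703 without replicate 5, and its inputs differed by 0.65 (adjusted p = 3.10e-05), or 0.55 without replicate 4. Ccne2 (ENSMUSG00000028212.16, chr4:11191351-11204779, plus strand), its paralog, had 18.9, 27.98, 16.6 and 16.4 CPM in the fRIP input and 12.1, 12.5, 7.68 and 10.6 in the IP. In UV-RIP, Ccne2 had 17.9, 20.4, 18.6 and 20.5 CPM in the input and 13.3, 13.2, 14.2 and 12.6 in the IP. Ccne2 was depleted in fRIP at -0.89 (standard error 0.11, adjusted p = 4.26e-07) and had -0.54 (adjusted p = 4.43e-12) in UV-RIP, or -0.60 and past the threshold without replicate 5. The inputs of Ccne2 overlapped, at 0.05, where those of Ccne1 were apart, and its difference had an adjusted p of 0.0581, or 0.0214 without replicate 6.

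The S-M group holds the cyclins that drive replication and mitosis with Cdk1. All 5 of its well-counted genes, Ccna2, Ccnb1, Ccnb2, Ccnf and Cdk1, were higher in the fRIP input, by 0.65 to 1.05 (10.6% of all genes were). In the fRIP IP the 3 cyclins Ccna2, Ccnb1 and Ccnb2 were depleted, and these same 3 had a negative call for the difference (10.7% and 8.07% of all genes). None was called in UV-RIP (5.53% of all genes were depleted), where the median was -0.27, against -0.17 for all genes, or -0.09 with TMM scaling. After a length trend was removed none was called in fRIP, and the 3 negative calls for the difference were kept in number. Ccna1, the germ cell form, had a mean of 3.25 UMIs a library and was not called in any comparison, and Ccnb3 never exceeded 1 UMI a library and was not tested.

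Ccna2 (ENSMUSG00000027715.9, chr3:36564865-36572150, minus strand), which overlaps Exosc9, had 119, 148, 141 and 138 CPM in the fRIP input and 72.4, 77.5, 73.1 and 82.4 in the IP. In UV-RIP its input held 68.2, 64.7, 66.2 and 65.6 CPM and its IP 64.6, 55.1, 53.7 and 56.01. IP lay below input with both crosslinkers, by a wide gap in fRIP and a small one in UV-RIP, and the fRIP input libraries were all above the UV-RIP input libraries. The log2 fold changes were -0.84 (standard error 0.08, adjusted p = 8.91e-09) and -0.21 (standard error 0.05, adjusted p = 5.72e-05), with a difference of -0.63 (adjusted p = 6.96e-06), and 1.05 (adjusted p = 8.45e-08) between the inputs. With a length trend removed the fRIP value was -0.54, under the fold threshold.

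Ccnb1 (ENSMUSG00000041431.16, chr13:100778650-100786570, minus strand), the mitotic cyclin, had 112, 154, 110.1 and 117 CPM in the fRIP input and 71.6, 76.4, 60.1 and 73.8 in the IP. In UV-RIP, Ccnb1 had 69.6, 64.8, 72.6 and 67.4 CPM in the input and 51.5, 49.3, 54.96 and 52.95 in the IP. The groups were apart with both crosslinkers. Its log2 fold changes were -0.80 (standard error 0.08, adjusted p = 3.02e-08), or -0.53 with a length trend removed, and -0.39 (standard error 0.05, adjusted p = 4.52e-15), with a difference of -0.41 (adjusted p = 0.00133) and 0.85 (adjusted p = 5.38e-06) between the inputs. Ccnb2 followed at -0.65 (adjusted p = 3.86e-07) in fRIP, -0.34 (adjusted p = 1.13e-08) in UV-RIP and 0.69 (adjusted p = 6.80e-06) between the inputs.

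Cdk1 (ENSMUSG00000019942.13, chr10:69335146-69352938, minus strand), the kinase these cyclins activate, had 130.2, 189, 148 and 141 CPM in the fRIP input and 131, 137, 129 and 150.00 in the IP, which overlapped. The UV-RIP input held 92.9, 93.8, 102 and 96.03 CPM and the IP 87.1, 85.2, 89.9 and 82.9, slightly apart. Cdk1 was not called with either crosslinker (-0.14, adjusted p = 0.217 and -0.16, adjusted p = 0.00163), but between the inputs it differed by 0.66 (adjusted p = 5.20e-05), or 0.53 and under the fold threshold without replicate 4. Ccnf, a cyclin that serves as an F-box protein, had -0.04 in fRIP and -0.02 in UV-RIP and 0.65 (adjusted p = 1.93e-06) between the inputs.

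The 14 transcription cyclins and CDKs form the kinases of Mediator (Cdk8, Cdk19 and Ccnc), of TFIIH (Cdk7 and Ccnh) and of elongation and splicing (Cdk9, Cdk12, Cdk13, Cdk11b, Ccnt1, Ccnt2, Ccnk, Ccnl1 and Ccnl2). None was called between the inputs (10.6% of all genes were higher and 9.44% lower in fRIP), with a median of -0.03. In UV-RIP all 14 lay below 0 (-0.07 to -0.66) with a median of -0.38, against -0.17 for all genes, and 3 were depleted (Cdk7, Cdk13 and Ccnc), as were 5.53% of all genes. With TMM scaling this range became -0.48 to 0.11 with a median of -0.20 and no call. In fRIP, Ccnc and Ccnh were depleted (10.7% of all genes), and TMM scaling left none. The difference was positive for 4 (Cdk7, Cdk13, Cdk19 and Ccnl1) and negative for none (18.6% and 8.07% of all genes).

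Cdk7 (ENSMUSG00000069089.8, chr13:100702631-100730939, minus strand) had 88.5, 104, 83.5 and 87.9 CPM in the fRIP input and 84.8, 84.8, 67.2 and 80.7 in the IP, which overlapped. Its UV-RIP input held 118, 118, 112 and 121 CPM and its IP 72.8, 74.2, 73.8 and 75.5, which were far apart. The log2 fold changes of -0.20 (standard error 0.08, adjusted p = 0.0509) and -0.66 (standard error 0.04, adjusted p = 1.32e-48) differed by 0.47 (adjusted p = 0.00015). Cdk13 (ENSMUSG00000041297.8, chr13:17710315-17805097, minus strand) had 236, 208, 203 and 232 CPM in the fRIP input and 198, 193, 154 and 192 in the IP. In UV-RIP, Cdk13 had 226, 227, 235 and 230.1 CPM in the input and 152, 136, 159 and 158 in the IP. Both IPs lay below their inputs without overlap, and the fRIP IP of replicate 5 was the lowest of its group. Cdk13 was depleted in UV-RIP at -0.60 (standard error 0.04, adjusted p = 9.29e-49), or -0.56 and under the threshold without replicate 4, with a difference of 0.35 (adjusted p = 0.00198) that became -0.01 with a length trend removed. With TMM scaling the UV-RIP values of Cdk7 and Cdk13 were -0.48 and -0.42, both under the fold threshold.

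Cdk12 (ENSMUSG00000003119.14, chr11:98203059-98278504, plus strand), the paralog of Cdk13, had the most UMIs of all 93 genes, with 470.2, 392, 425 and 455 CPM in the fRIP input and 348, 376, 313 and 347 in the IP. In UV-RIP, Cdk12 had 446, 452, 461 and 455 CPM in the input and 328, 301, 341 and 346 in the IP. IP and input were apart with both crosslinkers and under the fold threshold (-0.33, adjusted p = 0.0012 and -0.46, adjusted p = 1.61e-32). Cdk9 (ENSMUSG00000009555.16, chr2:32705784-32713076, minus strand), which releases paused polymerase, had 46.2, 50.97, 51.2 and 51.4 CPM in the fRIP input and 33.2, 38.8, 39.3 and 39.2 in the IP. In UV-RIP, Cdk9 had 37.3, 32.03, 34.97 and 31.5 CPM in the input and 27.2, 28.6, 26.5 and 28.7 in the IP. It was below input in all 4 pairs of each crosslinker, at -0.41 (adjusted p = 0.000186) and -0.29 (adjusted p = 5.05e-06), and its inputs differed by 0.56 (adjusted p = 5.76e-05), or 0.64 and past the threshold without replicate 3. Ccnc was depleted at -0.60 (adjusted p = 2.32e-06) in fRIP and -0.59 (adjusted p = 4.59e-27) in UV-RIP, and Ccnh at -0.60 (adjusted p = 6.40e-06) in fRIP, all just past the fold threshold. Cdk19 had 0.38 (adjusted p = 0.000224) in fRIP and -0.25 (adjusted p = 1.52e-09) in UV-RIP, while its paralog Cdk8 had 0.06 and -0.07.

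Of the 9 other cyclins and CDKs tested, 1 was depleted in fRIP (10.7% of all genes) and none was called in UV-RIP (0.680% enriched and 5.53% depleted). Ccng1 (ENSMUSG00000020326.7, chr11:40748552-40755311, minus strand), a cyclin induced by p53, had 157, 200.4, 150.1 and 161 CPM in the fRIP input and 85.7, 94.3, 80.8 and 93.9 in the IP. In UV-RIP, Ccng1 had 99.6, 91.1, 99.3 and 98.1 CPM in the input and 75.9, 71.7, 68.7 and 71.8 in the IP. IP and input were apart with both crosslinkers. Its log2 fold changes of -0.91 (standard error 0.08, adjusted p = 2.75e-09) and -0.43 (standard error 0.04, adjusted p = 1.80e-20) differed by -0.48 (adjusted p = 0.00014), and its inputs by 0.78 (adjusted p = 3.48e-06). Its fRIP value was the lowest of the called genes. Cdk5, which acts mainly in neurons, was the other gene of this group that was higher in the fRIP input (0.65, adjusted p = 0.000338). Cdk10 was listed at 0 in all 16 libraries. It overlaps Gm20388, Gm45842 and Spata2l, and the counting rule for shared reads is not given in the sources used here.

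Cdk14 (ENSMUSG00000028926.15, chr5:4803391-5420312, minus strand), the longest gene of the 96 at 617 kb, had 22.04, 16.7, 17.9 and 23.6 CPM in the fRIP input and 32.8, 29.5, 23.3 and 28.1 in the IP. The UV-RIP input held 23.8, 26.9, 24.3 and 28.9 CPM and the IP 21.5, 23.5, 23.3 and 22.97. The fRIP groups touched, with the IP of replicate 5 reaching the input range, and the UV-RIP IP lay just below its input. Cdk14 had 0.51 (adjusted p = 0.000165) in fRIP, or 0.59 and past the fold threshold without replicate 6, and -0.19 (adjusted p = 0.0112) in UV-RIP, a difference of 0.69 (adjusted p = 8.14e-05) that was 0.12 (adjusted p = 0.586) with a length trend removed. Cdk17, at 106 kb, also had a positive difference, 0.43 (adjusted p = 0.000336).

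Of the 5 Cdc phosphatases, which remove phosphates that hold CDKs or their targets in check, none was called in either IP (8.80% of all genes were enriched and 10.7% depleted in fRIP, and 0.680% and 5.53% in UV-RIP). Cdc25a (ENSMUSG00000032477.13) had 111, 119, 119 and 115 CPM in the fRIP input and 83.03, 96.6, 95.7 and 90.01 in the IP. In UV-RIP, Cdc25a had 87.4, 89.4, 86.8 and 91.3 CPM in the input and 77.4, 77.8, 70.8 and 77.9 in the IP. Its groups were apart with both crosslinkers, at -0.35 (adjusted p = 0.000587) and -0.23 (adjusted p = 3.39e-06). Cdc25b was the 1 phosphatase called between the inputs, at 0.92 (adjusted p = 1.97e-05), where 10.6% of all genes were higher. Cdc14a and Cdc14b, in bodies of 152 and 86.02 kb, had positive differences of 0.54 (adjusted p = 0.000801) and 0.58 (adjusted p = 9.71e-05).

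The 8 Cdc genes of the anaphase-promoting complex (APC/C) and of ubiquitin transfer gave no call in fRIP (8.80% of all genes were enriched and 10.7% depleted), and 3 were higher in the fRIP input (10.6% of all genes). Cdc20, the activator of the APC/C, had the largest difference between the inputs of all 93 genes, 1.19 (adjusted p = 8.45e-08), and a negative difference in enrichment of -0.47 (adjusted p = 0.000891). Cdc23 and Cdc34 were also higher in the fRIP input (0.67, adjusted p = 1.34e-05 and 0.69, adjusted p = 4.27e-06), while Cdc16, Cdc26 and Cdc27 were not called (0.24, -0.17 and 0.13). Cdc20b (ENSMUSG00000078926.8, chr13:113035111-113091195, plus strand), a relative of Cdc20 that overlaps Gpx8 and the Mir449 genes, had a mean of 27.1 UMIs a library, with 1.77, 2.32, 2.95 and 2.53 CPM in the UV-RIP input and 1.41, 1.02, 1.22 and 2.14 in the IP. The fRIP input held 2.02, 1.48, 1.30 and 1.54 CPM and its IP 1.69, 1.60, 0.896 and 2.43. The groups overlapped in both. It was called depleted in UV-RIP at -0.72 (standard error 0.20, adjusted p = 0.00102), but the adjusted p was 0.0804 by DESeq2 and 0.0694 without replicate 5. It was also the 1 gene called lower in the fRIP input, at -0.59 (adjusted p = 0.0454), a call lost without replicate 4, 5 or 6 (adjusted p = 0.0626, 0.278 and 0.155).

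Among the 7 tested genes for CDK and cyclin binding proteins, 2 were enriched and 2 depleted in the fRIP IP (8.80% and 10.7% of all genes), and 1 was depleted in UV-RIP (5.53%). Cdk2ap1 (ENSMUSG00000029394.11, chr5:124345417-124363082, minus strand), which binds Cdk2, had 23.1, 20.04, 26.1 and 23.3 CPM in the fRIP input and 39.3, 42.9, 45.5 and 44.6 in the IP, with no overlap. The UV-RIP input held 25.9, 28.4, 29.3 and 25.3 CPM and the IP 28.5, 30.99, 32.9 and 28.9, which overlapped although every pair was higher in the IP. The log2 fold changes of 0.90 (standard error 0.09, adjusted p = 1.66e-08) and 0.16 (standard error 0.06, adjusted p = 0.0291) differed by 0.75 (adjusted p = 4.51e-06), at inputs that overlapped. Its paralog Cdk2ap2, in a body of 1.84 kb, was depleted in fRIP at -0.80 (adjusted p = 4.53e-06) and had -0.54 (adjusted p = 4.31e-06) in UV-RIP.

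Cdk5r1 (ENSMUSG00000048895.13, chr11:80477023-80481184, plus strand), the activator p35 of Cdk5, had a mean of 26.4 UMIs a library. The fRIP input held 1.30, 0.914, 1.74 and 1.54 CPM and the IP 2.26, 2.09, 1.98 and 2.43. In UV-RIP, Cdk5r1 had 2.33, 1.60, 1.59 and 1.81 CPM in the input and 1.05, 1.42, 1.40 and 1.27 in the IP. The IP was above input in fRIP and below it in UV-RIP, without overlap in either. The fRIP value of 0.68 (standard error 0.22, adjusted p = 0.0161) had an adjusted p of 0.0668 without replicate 3 and 0.122 by DESeq2, and was 0.54 without replicate 4. The UV-RIP value was -0.50 (adjusted p = 0.0609), with an adjusted p of 0.049 without replicate 4. The difference of 1.17 (adjusted p = 0.00557) was the largest of the 93 genes, with an adjusted p of 0.0769 without replicate 3.

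Ccnb1ip1 (ENSMUSG00000071470.4, chr14:50789248-50807732, minus strand), a cyclin B interactor that acts in meiosis and overlaps Rpph1, had a mean of 14.8 UMIs a library, with 0.780, 1.69, 1.16 and 1.17 CPM in the fRIP input and 0.621, 0.535, 0.707 and 0.885 in the IP. In UV-RIP, Ccnb1ip1 had 1.12, 1.36, 1.06 and 1.52 CPM in the input and 0.844, 0.814, 0.791 and 0.752 in the IP. The groups overlapped in fRIP and were apart in UV-RIP. It was called depleted at -0.80 (adjusted p = 0.0417) in fRIP and -0.66 (adjusted p = 0.0442) in UV-RIP. The fRIP call was lost without replicate 4 (adjusted p = 0.246) or 5 (0.1), and that of UV-RIP without the replicate block (0.055) and without any 1 of the 4 replicates (0.0529 to 0.261). Cdk5r2 was listed at 0 in all libraries.

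The genes that share only the letters of the symbol include 11 of the Cdc42 family. Cdc42 is a small GTPase of the cytoskeleton, and its effectors act outside the kinases described above. Cdc42bpg (ENSMUSG00000024769.7, chr19:6306456-6325652, plus strand), a kinase that binds Cdc42, was the 1 gene of the 93 enriched with both crosslinkers. Its fRIP input held 69.04, 56.6, 72.9 and 70.5 CPM and its IP 124, 132, 151 and 136. In UV-RIP, Cdc42bpg had 53.4, 58.2, 53.1 and 52.4 CPM in the input and 106, 80.2, 89.5 and 91.8 in the IP. Every IP library was above every input library of its crosslinker. The log2 fold changes of 1.01 (standard error 0.08, adjusted p = 1.04e-09) and 0.76 (standard error 0.05, adjusted p = 6.98e-56) differed by 0.26 (adjusted p = 0.0633), with an adjusted p of 0.0207 without replicate 3.

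Cdc42ep4 (ENSMUSG00000041598.7, chr11:113726850-113751881, minus strand) had 54.7, 58.6, 63.4 and 58.5 CPM in the fRIP input and 92.6, 100.4, 102 and 87.6 in the IP. In UV-RIP, Cdc42ep4 had 82.6, 81.3, 86.2 and 88.2 CPM in the input and 91.9, 89.6, 98.1 and 99.7 in the IP. IP was above input with both crosslinkers, and the fRIP input lay below the UV-RIP input, where the MCM genes had theirs above it. It was enriched in fRIP at 0.70 (standard error 0.08, adjusted p = 1.12e-07), or 0.55 and under the threshold with a trend on transcript GC removed, and had 0.16 (standard error 0.04, adjusted p = 0.000894) in UV-RIP, a difference of 0.54 (adjusted p = 1.98e-05). The UV-RIP groups lay only just apart. Cdc42 itself was depleted in fRIP at -0.76 (adjusted p = 3.48e-08), had -0.49 (adjusted p = 1.41e-27) in UV-RIP and was higher in the fRIP input by 0.69 (adjusted p = 8.36e-06). Cdc73 (ENSMUSG00000026361.9, chr1:143598800-143702893, minus strand), a subunit of the Paf1 complex, had 219, 191, 169.5 and 208 CPM in the fRIP input and 176, 168, 126 and 163 in the IP, which overlapped. In UV-RIP, Cdc73 had 211, 218, 194 and 218 CPM in the input and 133, 132, 134 and 138 in the IP, which were apart. Cdc73 was depleted in UV-RIP at -0.64 (standard error 0.04, adjusted p = 4.23e-54), or -0.46 and under the fold threshold with TMM scaling, and its difference of 0.33 (adjusted p = 0.00298) had an adjusted p of 0.0618 without the replicate block. With a length trend removed that difference became -0.05 (adjusted p = 0.768).

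**Figure D4:**
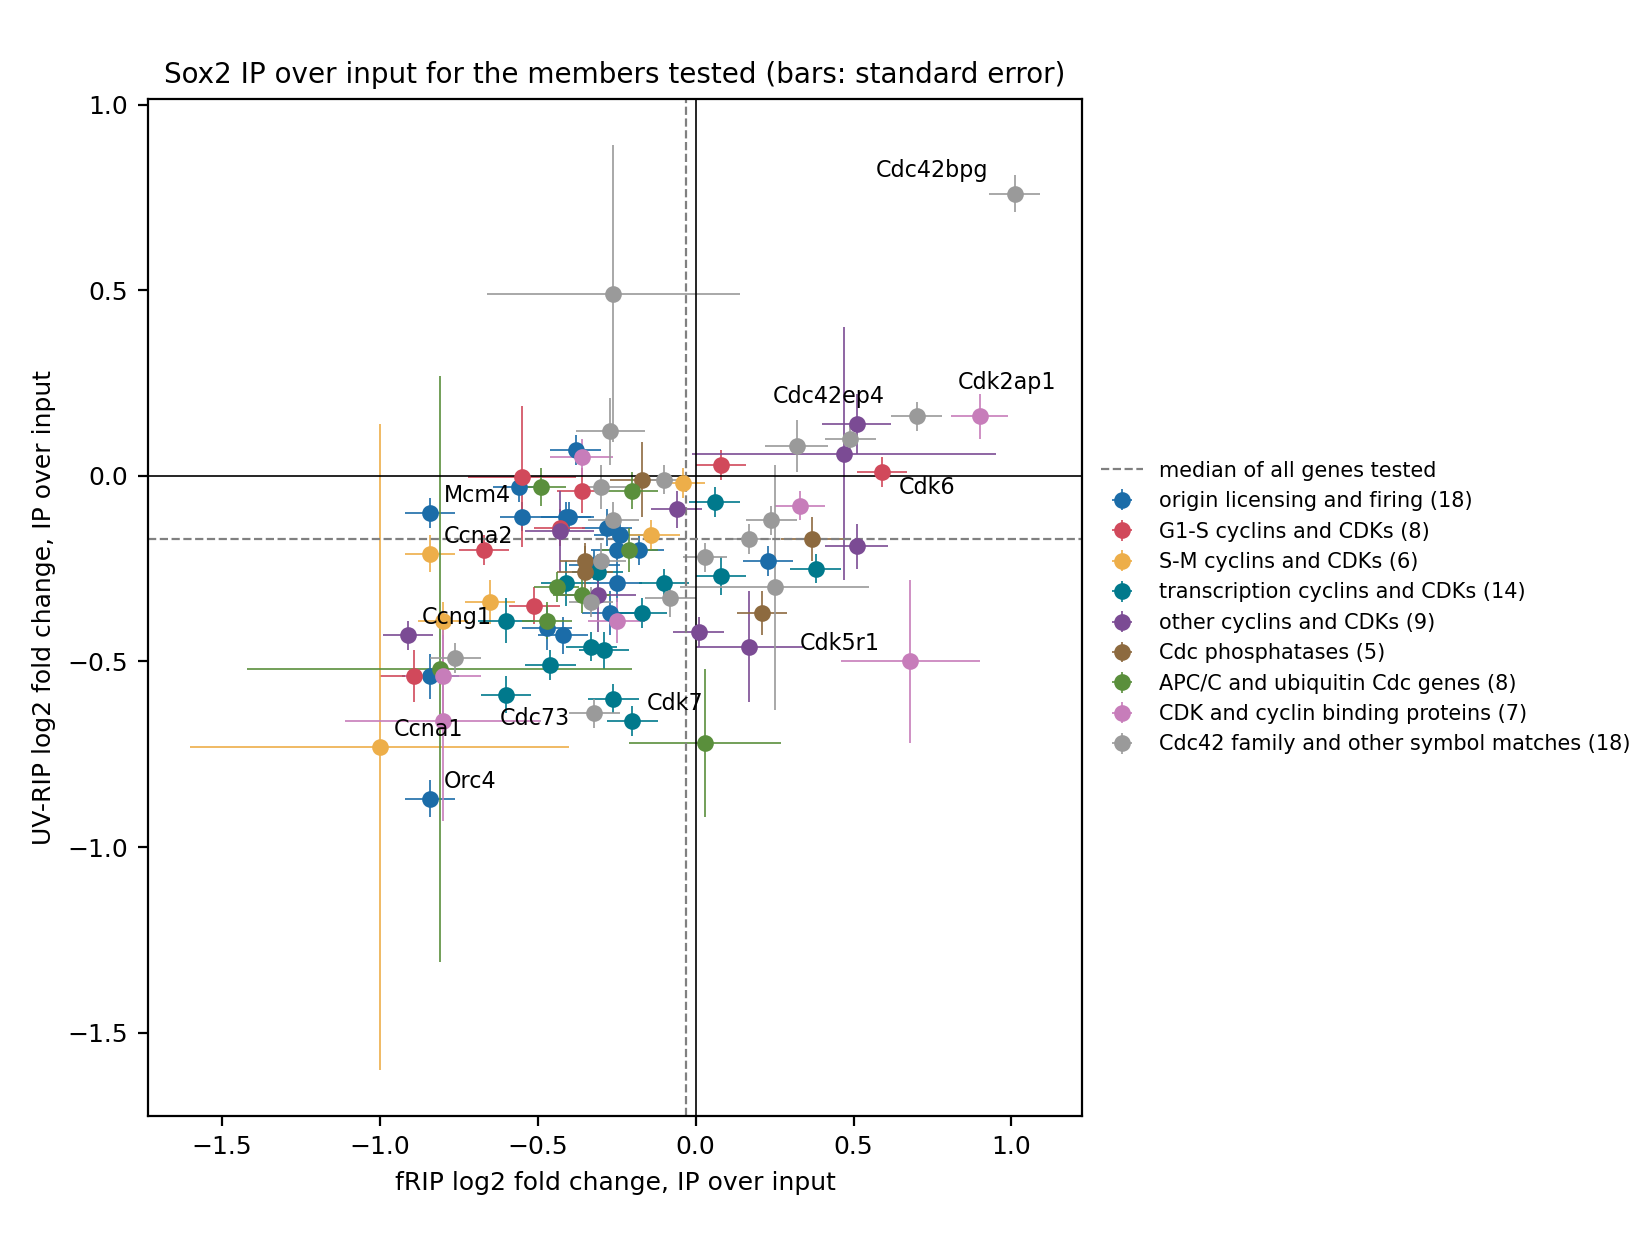
Log2 fold change of IP over input in fRIP (x axis) and UV-RIP (y axis) for the 93 genes tested, coloured by role, with standard errors as bars and dashed lines at the medians of all genes (-0.03 and -0.17). Cdc42bpg lies alone at the upper right and Orc4 lowest on the y axis, while Mcm4 and Ccna2 lie at -0.84 in fRIP and at -0.10 and -0.21 in UV-RIP.

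The difference between the crosslinkers varied with gene length. Of the 21 tested genes of 50 kb or more, 14 had a positive call and none a negative one, with a median of 0.40. Among all genes of that length the shares were 46.7% and 1.68%, with the same median of 0.40. Of the 22 under 10 kb, 1 had a positive call (Cdk5r1) and 11 a negative one, with a median of -0.29, against 3.85%, 11.7% and a median of -0.11 for all genes under 10 kb. The 50 genes in between had 5 positive and 8 negative calls (1440 of all 9010 genes of that length had a positive call and 760, or 8.44%, a negative one). Over the 93 genes Pearson's and Spearman's correlations with the log10 of gene length were 0.53 and 0.60 for the difference, 0.46 and 0.45 for fRIP, -0.00 and -0.03 for UV-RIP and -0.52 and -0.52 for the inputs. These describe the genes, which share the 16 libraries and are not replicates. After removal of a length trend over all genes, 5 positive and 22 negative calls were left (7.46% and 8.58% of all genes). The longest genes with a positive call were Cdk14, Cdc42bpa (205 kb, 0.37), Cdk5rap2 (194 kb, 0.42), Cdk6 and Cdc14a, and Ccnd3 (94.6 kb) was a long gene without one at 0.04, which became -0.32 (adjusted p = 0.0101) with the trend removed.

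**Figure D5:**
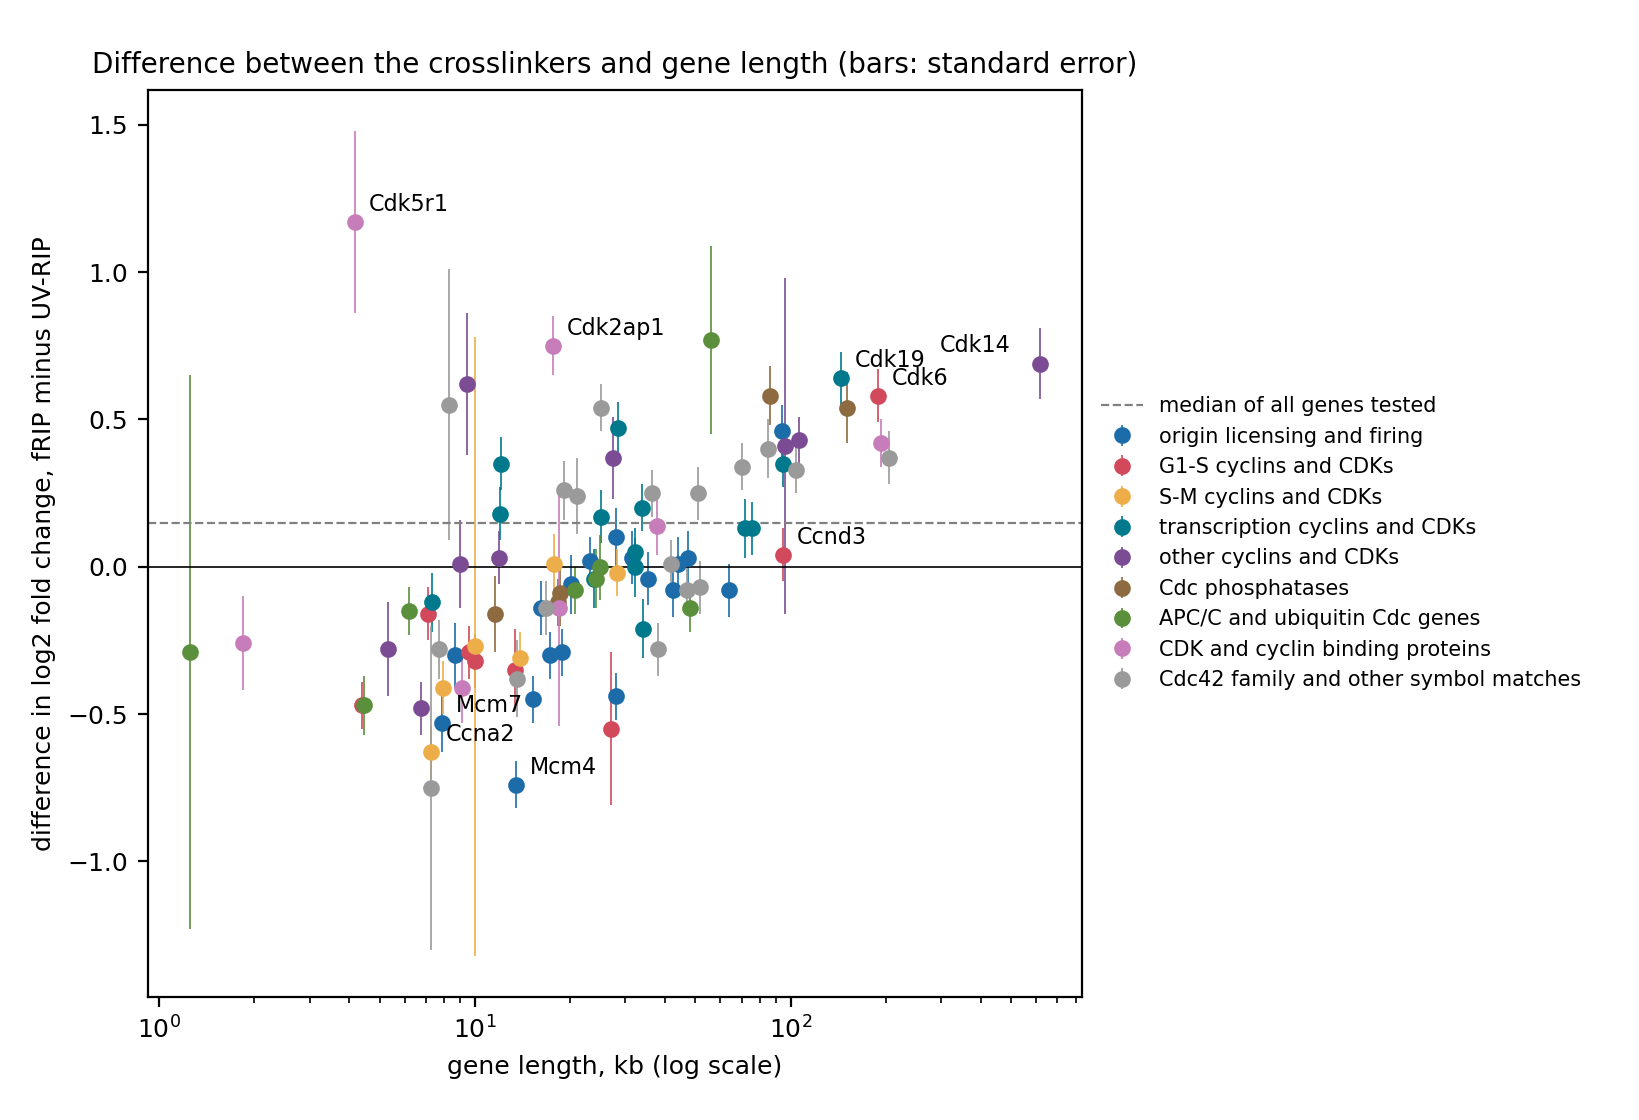
Difference in log2 fold change between the crosslinkers (fRIP minus UV-RIP, y axis) against gene length in kb on a log scale (x axis) for the 93 genes tested, coloured by role, with standard errors as bars and a dashed line at the median of all genes (0.15). Most genes of 50 kb or more lie above 0 and most genes under 10 kb below it, with Cdk5r1 as a short gene far above.

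In UV-RIP, enrichment varied with the GC content of the transcript (Pearson's correlation of 0.50 and Spearman's of 0.49 over the 93 genes, against 0.29 and 0.23 in fRIP). The 7 genes depleted in UV-RIP had GC contents of 35.5% to 53.3% with a median of 42.4%, against a median of 48.6% for the 93 genes. Ccnc, Orc4 and Cdc73 were lowest at 35.5%, 36.8% and 36.8%, and the enriched Cdc42bpg had 60.3%. After removal of a trend on transcript GC over all genes, 2 were depleted in UV-RIP and 9 in fRIP (1.55% and 9.60% of all genes). Whether length or GC content has a part in any single value was not tested beyond these fits.

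Genes of the same pathways outside the symbol rule were followed as 5 lists of 58 genes, of which 57 were tested. In fRIP 2 were enriched and 11 depleted (3.51% and 19.3%, against 8.80% and 10.7% of all genes), with a median of -0.31 against -0.03. In UV-RIP none was enriched and 2 were depleted (3.51% against 5.53%), with a median of -0.23 against -0.17. Between the inputs 11 were higher in fRIP and 1 lower (19.3% and 1.75%, against 10.6% and 9.44%), with a median of 0.24 against 0.03. Of 7 CDK inhibitors, which block the kinases, Cdkn1b and Cdkn2d were depleted in fRIP (-0.86, adjusted p = 3.11e-07 and -0.72, adjusted p = 0.000467), and 4 were higher in the fRIP input, against 10.7% and 10.6% of all genes. Of 10 licensing partners tested, Gmnn, which encodes the licensing inhibitor geminin, was depleted with both crosslinkers (-0.67, adjusted p = 3.42e-06 and -0.75, adjusted p = 5.46e-34), Gins4 in fRIP (-0.60, adjusted p = 2.74e-06), and 1 of the 10 was higher in the fRIP input. Cdt1, the partner of Cdc6 in loading, was listed at 0 in all 16 libraries, which is not read as absence.

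Of 11 Rb and E2F genes, E2f3 and E2f2 were enriched in fRIP (0.87, adjusted p = 6.83e-09 and 0.62, adjusted p = 5.03e-06) and E2f5 was depleted (-0.64, adjusted p = 2.35e-06), against 8.80% and 10.7% of all genes. In the inputs none was higher in fRIP, and E2f3 was lower at -0.79 (adjusted p = 3.65e-06), against 10.6% and 9.44% of all genes. Of 11 mitotic and checkpoint kinases, 3 were depleted in fRIP (10.7% of all genes), led by Mad2l1 (-1.01, adjusted p = 7.67e-09) and Bub1 (-0.76, adjusted p = 7.57e-08), and 5 were higher in the fRIP input (10.6%). Of 18 other APC/C and SCF genes, 3 were depleted in fRIP (10.7%), led by Cks1b (-1.18, adjusted p = 1.47e-09) and Skp1a (-1.07, adjusted p = 1.04e-09), and Anapc10 was the 1 depleted in UV-RIP (-0.62, adjusted p = 3.33e-41), where 5.53% of all genes were. Cks1b was also the 1 of the 18 called higher in the fRIP input (10.6% of all genes).

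Of the 96 genes, 59 overlap another annotated gene and 31 a protein-coding one, and since the strand setting of the counting is not given in the sources used here, reads of such pairs cannot be told apart. Beside the overlaps given above, Orc2 overlaps Nif3l1, Orc4 overlaps Acvr2a and Mbd5, Ccnd1 overlaps LTO1, Ccnd3 overlaps Bysl, Ccne2 overlaps Ints8, Ccnc overlaps Tstd3, Ccnh overlaps Rasa1, Cdc20 overlaps Elovl1 and Cdc73 overlaps B3galt2.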

How the data were processed

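RNA was measured in 16 libraries of male mESC, 4 each of fRIP IP, fRIP input, UV-RIP IP and UV-RIP input. Groups and replicate numbers (3 to 6) follow the titles of the samples. The authors aligned reads with STAR to the mouse genome build mm10, counted uniquely placed UMIs over whole gene bodies of GENCODE vM16, and deposited a table of raw counts per gene. Versions, the strand setting and the rule for overlapping genes are not given in the sources used here. Coordinates come from GENCODE vM21 of the same build, matched by identifier and version for 85 of the 96 genes. The other 11 carry no coordinates.

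Counts were tested with edgeR 4.0.16 in R 4.3.3 (quasi-likelihood test, Benjamini-Hochberg adjustment over the 22936 genes that reached 3 UMIs in 1 library or more, total UMIs as library size). IP and input of 1 number come from the same lysate, so the number was a block. Deviations from the group means correlated between IP and input of the same number at 0.598, 0.114, 0.601 and 0.32 in fRIP and 0.267, 0.206, 0.441 and 0.0286 in UV-RIP over 10208 genes. The difference between crosslinkers was an interaction term, and the inputs were compared without a block. Full library values were given for 38 genes, being up to 6 called genes a direction with the largest fold changes in each crosslinker, the 3 largest differences a direction and a list by role. List genes were named where called, up to 2 a list and direction. The genes and lists were chosen with earlier results of these data known. The test was checked on simulated counts with 200 changed genes. Alternatives were no block, TMM, DESeq2 1.42.0, other count filters, library sizes without Gm26917 and Gm42418, each replicate left out in turn, and removal of a trend on gene length or transcript GC (a lowess fit over genes that averaged at least 10 UMIs).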

Additional observations from a re-analysis of the deposited data

Results flagged for a closer look

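In 7 of the 76 groups of 4 pairs examined, 1 pair stood apart from the other 3 by more than Dixon's critical share of the range for 4 samples, which chance alone gives in about 1 of 20 groups. Values are log2 ratios of IP to input of 1 pair. In fRIP, replicate 4 lay at -0.06 for Cdk12, with the other pairs at -0.44 to -0.39, and at 0.91 for Cdk6, with the others at 0.47 to 0.50. Replicate 3 lay at -0.48 for Cdk9, against -0.40 to -0.38, and replicate 5 at -0.50 for Orc5, against -0.18 to -0.13. In UV-RIP, replicate 4 lay at -0.74 for Cdk13, against -0.57 to -0.55. Replicate 5 lay at -0.23 for Mcm4, with the others at -0.08 to -0.05, and at -0.02 for Orc5, with the others at -0.23 to -0.20.

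For 21 of the 38 genes given by library, the log2 fold changes of the crosslinkers differed by edgeR's interaction test at an adjusted p below 0.05. Of all genes 18.6% had a positive and 8.07% a negative call, and the 38 include the 3 largest differences in each direction by their choice, so nothing is read from the count. The difference, fRIP minus UV-RIP, was negative for all 6 MCM genes, at -0.45 for Mcm2, -0.30 for Mcm3, -0.74 for Mcm4, -0.29 for Mcm5, -0.44 for Mcm6 and -0.53 for Mcm7. It was also negative for Orc6 (-0.30), for the cyclins Ccna2 (-0.63), Ccnb1 (-0.41), Ccnd1 (-0.32), Ccne1 (-0.29) and Ccng1 (-0.48), and for Cdk4 (-0.47). It was positive for Cdk5r1 (1.17), Cdk2ap1 (0.75), Cdk14 (0.69), Cdk6 (0.58), Cdc42ep4 (0.54), Cdk7 (0.47), Cdk13 (0.35) and Cdc73 (0.33).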

How the results depend on the processing

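Counts are of genes called among the 93. Removal of a length trend left 8 depleted in fRIP and 1 in UV-RIP, 5 positive differences and 2 genes lower in the fRIP input. Of all genes 5.65%, 1.69%, 7.46% and 10.7% were called so. It turned the differences of Ccnd3, Cdc73 and Cdk13 to -0.318 (adjusted p = 0.0101), -0.0511 (0.768) and -0.0123 (0.957). A trend on transcript GC, chosen after the data were seen, left 9 depleted in fRIP, 2 in UV-RIP, 30 negative differences and 2 genes lower in the fRIP input. Of all genes 9.60%, 1.55%, 12.9% and 9.71% were called so. TMM and DESeq2 with median-of-ratios each left 1 depleted in UV-RIP (1.85% and 1.02% of all genes). Library sizes without Gm26917 and Gm42418 also left 1 there (2.20%), and gave 30 negative differences (12.9%) and 4 genes lower in the fRIP input (12.1%). Without the replicate block there were 10 negative differences (5.29% of all genes). With a block on the inputs, whose equal numbers are not from shared plates (correlations of -0.272 to -0.0664), 0 were lower in the fRIP input, as with either scaling in DESeq2 and without a count filter, and 2 with a filter of 10 UMIs in 4 libraries. Of all genes 9.21% were lower with the block, and 8.04% and 8.36% by DESeq2 with total UMIs and median-of-ratios. Without a filter 7.30% were lower, and 12.4% with the filter of 10 UMIs. With no fold threshold 14 were above and 54 below input in fRIP, and 3 and 63 in UV-RIP. By the same rule 40 were higher and 10 lower in the fRIP input. With the fold threshold added, 4 differences were positive and 2 negative (7.87% and 2.69% of all genes). Without the binding proteins and the genes that match by symbol only, 1 was enriched in fRIP, 0 in UV-RIP, and 10 differences were positive (8.80%, 0.680% and 18.6% of all genes). The cause of these moves was not tested.

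Leaving out 1 replicate gave 3 to 6 enriched and 11 to 16 depleted in fRIP, 1 and 6 to 7 in UV-RIP, 19 to 21 positive and 12 to 18 negative differences, and 20 to 29 higher and 0 to 2 lower in the fRIP input. The 3 came without replicate 4 and the 12 without replicate 3. Of the 38 genes given by library, the block moved the calls of Ccnb1ip1, Ccnd1, Ccne1, Cdc73, Mcm3, Mcm5, Orc6 and, in the inputs, Cdc20b (adjusted p = 0.0514 with it), and of no others. Over all 22936 genes, calls in UV-RIP numbered 156 enriched and 1268 depleted, or 505 and 425 with TMM scaling and 78 and 882 by DESeq2 with total UMIs. Positive and negative differences numbered 4264 and 1852, or 3062 and 2810 with TMM scaling and 3285 and 1214 without the block. The gene-body GC alternative was not run for want of a genome sequence. Ccnb1ip1, Cdc20b and Cdk5r1, at a mean of 14.8 to 27.1 UMIs a library, carry the widest counting error of the genes given by library.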
